A study of Callithrix jacchus with 5 samples.

Results

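The 6 genes DNMT1, DNMT3A, DNMT3B, TET1, HELLS and TRIM28, which encode writers and an eraser of DNA methylation and 2 cofactors, were followed across 5 RNA sequencing libraries of common marmoset (Callithrix jacchus) cells. Their symbols were matched to Ensembl marmoset gene identifiers, and all 6 were found among 30811 identifiers, of which 12660 carry a symbol. The libraries come from 1 culture of fibroblasts (connective tissue cells, labelled E01F with the P number 1), 3 embryonic stem (ES) cell lines (No40, DSY127 and No20, labelled with the P numbers 63, 17 and 45) and 1 sample of induced pluripotent stem (iPS) cells. The series title states that the iPS cells were made from marmoset fibroblasts with RNA, and the labels give neither their parent culture nor a P number. No genotype, treatment or age is given for any library.

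DNA methylation at CpG sites is laid down by the de novo methyltransferases DNMT3A and DNMT3B and copied onto new strands after replication by the maintenance methyltransferase DNMT1, which is guided by UHRF1. TET enzymes oxidise methylcytosine and so start its removal. HELLS is a chromatin remodeller that opens nucleosomal DNA to the methyltransferases, and TRIM28 is a scaffold that KRAB zinc finger proteins bring to transposons and imprinted regions, where it recruits the histone H3K9 methyltransferase SETDB1 and helps to keep DNA methylation. Human and mouse pluripotent cells are known for abundant DNMT3B and TET1, and the counts here sum all isoforms of a gene.

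Total counts ranged from 34111715 to 58601185 in the fibroblast and ES libraries and stood at 5746449 in the iPS library. Levels are TMM-scaled CPM, a library's counts set against its scaled total, and a level per length is CPM divided by the length of the gene model in kilobases. POU5F1, a core pluripotency factor, fitted the labels, with 1.64 CPM in fibroblasts, from 1132 to 1733 CPM across ES lines and 1286 CPM in iPS cells. The 12 measured fibroblast markers summed to 84823 CPM in fibroblasts, to between 1661 and 2839 CPM in ES lines and to 11397 CPM in iPS cells. In the iPS library 2 of the 12, the collagen COL1A2 and the mesenchymal factor PRRX1, passed as higher than in ES lines. Over all genes tested 0.109% passed as higher. PRRX1 had 389 CPM in the iPS library, above its 174 CPM in the fibroblasts, while COL1A2 had 3447 CPM against 19646 CPM. When ES line No40 was left out, 0 of all genes tested passed in this comparison, so that setting says nothing about these markers. In these bulk samples fewer cells of a type and less RNA per cell cannot be told apart.

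**Figure D1:**
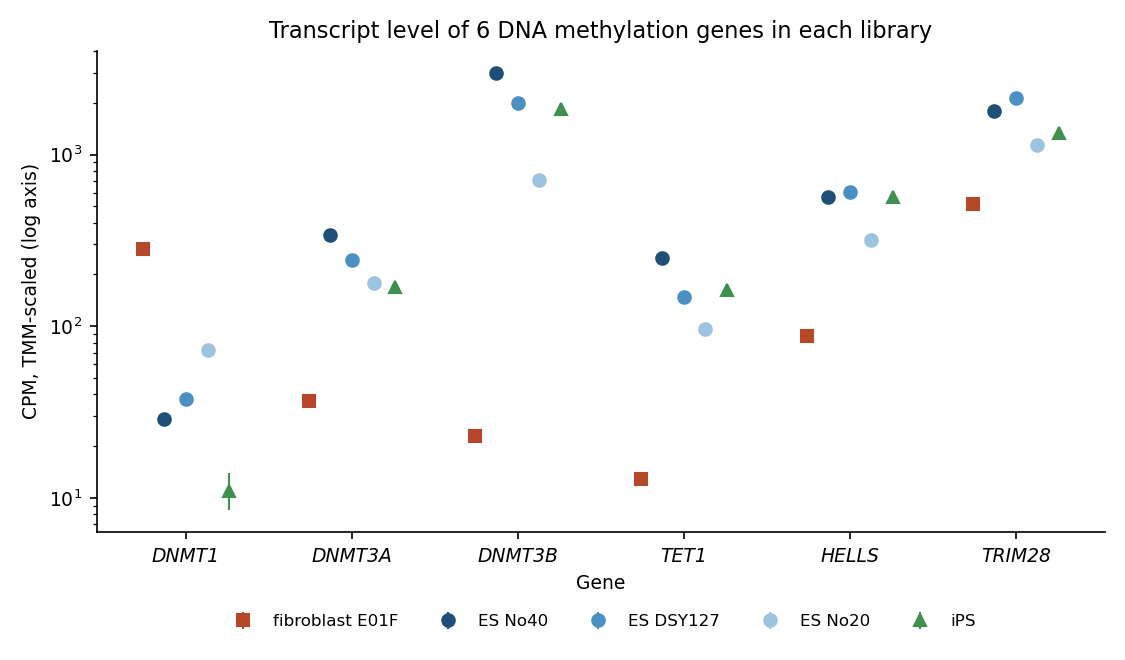
TMM-scaled CPM (log axis) of each of the 6 genes in each of the 5 libraries, with bars for the 95% exact Poisson interval, mostly smaller than the symbol. The fibroblast library (squares) lies below all ES lines (circles) for DNMT3A, DNMT3B, TET1, HELLS and TRIM28 and above them for DNMT1, where the iPS library (triangle) is lowest at 10.99 CPM.

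In the fibroblast library DNMT3A, DNMT3B, TET1, HELLS and TRIM28 fell and DNMT1 rose against the ES lines, where 9.28% of the 17462 genes tested fell and 8.8% rose. That split of all genes, 1537 higher and 1620 lower, was 1066 and 2016 with total counts alone and 1674 and 1009 with limma voom, while the directions of the 6 were the same. In the iPS library none of the 6 passed with the edgeR quasi-likelihood test, where 0.109% of the genes tested rose and 0 fell. The genes were chosen with these results known, so nothing is read from the counts against those percentages. The median log2 fold change of the 6 was -2.64 in fibroblasts, against -0.15 over all genes tested, and -0.19 in iPS cells, against -0.11. Replicates exist for the ES group alone, as 3 lines with 1 library each, and the labels do not say how the cultures were run.

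**Figure D2:**
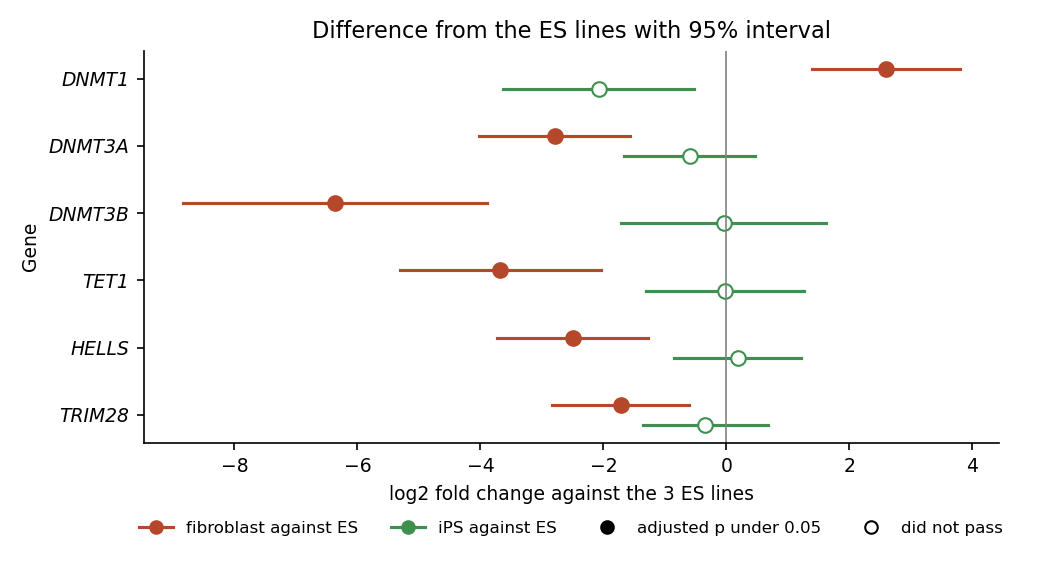
Log2 fold change of each gene against the 3 ES lines with its 95% interval from the edgeR fit, for the fibroblast library and the iPS library. Filled points have an adjusted p under 0.05: all 6 fibroblast values are filled, 5 below 0 and DNMT1 above, and all 6 iPS values are open.

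The de novo enzymes were high in every pluripotent library. DNMT3B (ENSCJAG00000015617, chromosome 5, 4462988 to 4512157, minus strand in the coordinates of the files) stood at 2985 CPM in ES line No40, 1985 CPM in DSY127, 711 CPM in No20, 1837 CPM in the iPS library and 23.0 CPM in the fibroblast library. The fibroblast value lay far below the lowest ES line, while the iPS value lay inside the ES range. DNMT3B fell in the fibroblast library from an ES mean of 1893 ± 1139 CPM (SD, n = 3), a log2 fold change of -6.37 ± 1.04 (SE, adjusted p = 0.00979). This was the widest gap among the 6 genes, 82.5-fold, and DNMT3B also had the widest spread among ES lines, with the highest line 4.20-fold above the lowest.

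DNMT3A (ENSCJAG00000008172, chromosome 14, 83156977 to 83269677, plus strand) stood at 341 CPM in No40, 242 CPM in DSY127, 179.5 CPM in No20, 168 CPM in the iPS library and 36.7 CPM in the fibroblast library. The iPS value was the lowest of the pluripotent libraries, but its counting interval of 158 to 179 CPM overlapped that of No20, 176 to 184 CPM. In the fibroblast library DNMT3A fell 6.92-fold from an ES mean of 254 ± 81.6 CPM (n = 3), a log2 fold change of -2.79 ± 0.52 (adjusted p = 0.0148).

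The balance between the de novo enzymes was reversed in the fibroblast library. Per length, DNMT3B stood 8.46-fold above DNMT3A in No40 (95% interval from Clopper-Pearson bounds 8.32 to 8.60), 7.92-fold in DSY127, 3.83-fold in No20 (3.74 to 3.93) and 10.6-fold in the iPS library (9.91 to 11.3). In the fibroblast library the ratio of DNMT3B to DNMT3A was 0.604 (0.560 to 0.652). Per length, DNMT3B was thus the higher of the pair in each of the 4 pluripotent libraries and DNMT3A in the fibroblasts. A ratio of 2 genes within a library does not depend on the scaling between libraries. It does rest on the deposited gene models, of 4697 bases for DNMT3B and 4543 for DNMT3A, and on how reads were assigned to them. These ratios were not tested, and their intervals, like all intervals for single libraries here, cover counting error only.

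DNMT1 ran the opposite way. DNMT1 (ENSCJAG00000005794, chromosome 22, 9535471 to 9591994, minus strand) stood at 279.9 CPM in the fibroblast library, 73.0 CPM in No20, 37.4 CPM in DSY127, 28.7 CPM in No40 and 10.99 CPM in the iPS library. The counting intervals of the 5 libraries did not overlap, the iPS value resting on 65 reads. The fibroblast level was 6.03-fold above the ES mean of 46.4 ± 23.5 CPM (n = 3), a log2 fold change of 2.59 ± 0.50 (adjusted p = 0.0171), the one rise among the 6 genes. Without ES line No20 its log2 fold change was 3.19 (adjusted p = 0.000354), and without No40 it was 2.40 (adjusted p = 0.0554).

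Percentiles per length were taken among genes with a count in any library, so they include genes without a count in the library ranked. DNMT1 ranked at the 91.3rd percentile in the fibroblast library, between the 58.8th and 74.6th in the ES lines and at the 47.6th in the iPS library. DNMT3B ranked at the 58.1st percentile in the fibroblasts and between the 97.7th and 99.6th in the ES lines, with 99.2 in the iPS library. The deposited gene model of DNMT1 has 5449 bases in 40 separate exons and no other model overlaps it, so its reads are not shared with a neighbour in this annotation. Of the other members, none shares exon bases with another model, and the models that overlap the spans of DNMT3A and TET1 outside their exons held at most 1 and 2 reads in a library, while the one at HELLS held at most 73.

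Neither of the measured partners of DNMT1 at the replication fork passed. UHRF1, which recognises hemimethylated CpG, had 281 CPM in fibroblasts, 203 to 274 CPM across ES lines and 178 CPM in iPS cells, with a fibroblast log2 fold change of 0.29 ± 0.34 (95% interval -0.53 to 1.10, adjusted p = 0.594). PCNA, the sliding clamp, had 210.4 CPM in fibroblasts, from 174 to 222 CPM in ES lines and 198 CPM in iPS cells (0.04 ± 0.34, interval -0.77 to 0.84, adjusted p = 0.951). The per-length ratio of UHRF1 to DNMT1 was 1.24 in the fibroblast library, 4.65 in No20, 6.71 in DSY127, 9.22 in No40 and 20.0 in the iPS library. Of the 16 genes in a list of S phase and proliferation genes, 0 passed in either comparison with the edgeR test. Unadjusted p-values under 0.05 numbered 1, lower in fibroblasts, and 0 in iPS cells, DESeq2 called 1 and 0, and limma voom called 0 in both. Over all genes tested in fibroblasts, 8.8% rose and 9.28% fell with edgeR, and 15.7% and 18.3% had an unadjusted p under 0.05. DESeq2 called 11.8% higher and 15.6% lower, and limma voom 9.59% and 5.78%. In iPS cells the shares were 0.109% and 0 with edgeR, and 5.56% and 3.13% for an unadjusted p under 0.05. They were 2% and 0.384% with DESeq2 and 0.0286% and 0 with limma voom. At these iPS shares, 0 of 16 is no result about the list.

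TET1, the dioxygenase that starts oxidation of methylcytosine, was again higher in the pluripotent libraries than in the fibroblasts. Per length it ranked between the 69.0th and 84.2nd percentile in the ES lines, below DNMT3B. It ranked at the 77.5th percentile in the iPS library and at the 48.3rd in the fibroblasts. TET1 (ENSCJAG00000019005, chromosome 12, 55570606 to 55709631, minus strand) stood at 249 CPM in No40, 162 CPM in the iPS library, 147 CPM in DSY127, 96.8 CPM in No20 and 12.9 CPM in the fibroblast library. The counting intervals of the iPS library (152 to 173 CPM) and DSY127 (143 to 151 CPM) nearly met, and all pluripotent values lay clear of the fibroblast value. TET1 fell 12.8-fold in the fibroblast library from an ES mean of 164 ± 77.4 CPM (n = 3), a log2 fold change of -3.67 ± 0.68 (adjusted p = 0.015).

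Neither paralogue of TET1 passed with edgeR or limma voom, and both passed with DESeq2, TET2 as higher (adjusted p = 0.0224) and TET3 as lower (adjusted p = 0.0329). TET2 had 32.6 CPM in fibroblasts, 12.3 ± 2.60 CPM in ES lines (n = 3) and 19.9 CPM in iPS cells, with a fibroblast log2 fold change in edgeR of 1.40 ± 0.44 (adjusted p = 0.0726). TET3 had 26.6, 67.3 ± 20.0 and 64.6 CPM in the same order (-1.34 ± 0.47, adjusted p = 0.096). Per length, TET1 exceeded TET2 by 15.2-fold in No40, 12.2-fold in DSY127, 8.70-fold in No20 and 7.60-fold in the iPS library, whereas its ratio to TET2 in the fibroblasts was 0.369 (95% interval 0.336 to 0.406). TET1 also exceeded TET3 in the 4 pluripotent libraries, by 1.75-fold to 3.05-fold, and lay below it in the fibroblasts with a ratio of 0.524.

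**Figure D3:**
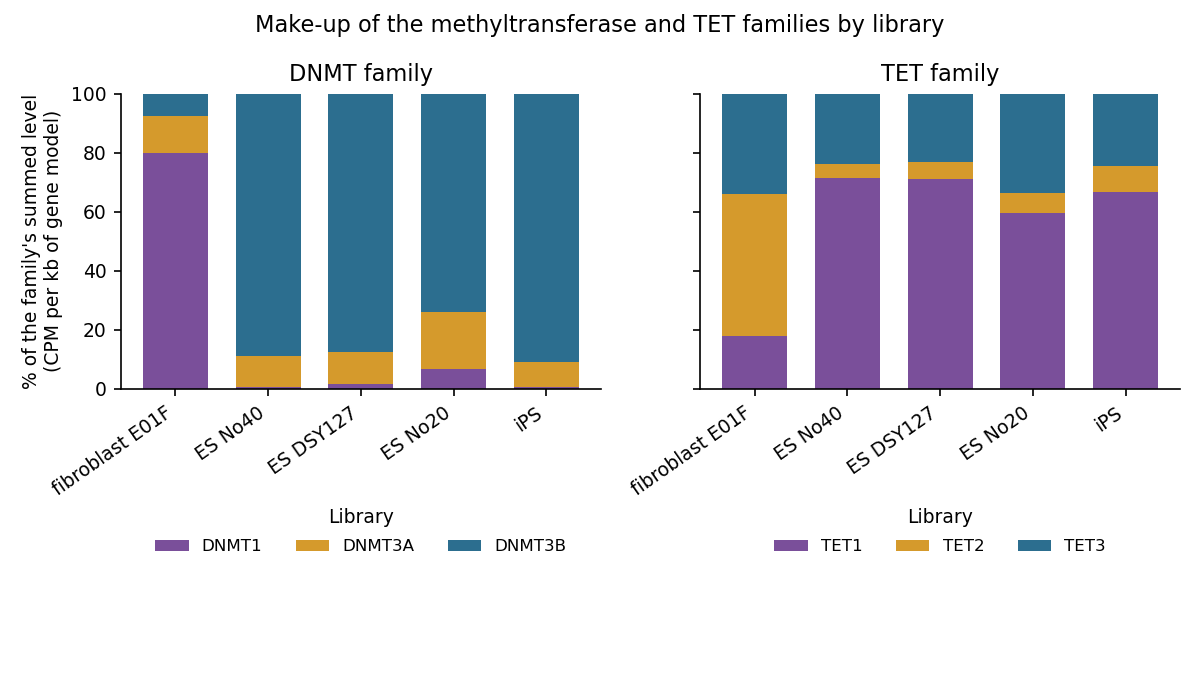
Share of each paralogue in the summed per-length level (CPM per kilobase of gene model) of DNMT1, DNMT3A and DNMT3B (left) and of TET1, TET2 and TET3 (right) in each library. DNMT1 makes up 79.8% in the fibroblasts and 0.469% to 6.56% in the pluripotent libraries, where DNMT3B holds 74.1% to 90.9%, and TET1 goes from 17.8% in the fibroblasts to between 59.4% and 71.4% in the pluripotent libraries.

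The summed per-length level of the 3 methyltransferases was 64.3 CPM per kilobase in the fibroblast library, 204 in No20, 430.2 in the iPS library, 483 in DSY127 and 716 in No40. DNMT1 accounted for most of the fibroblast sum and DNMT3B for most of each pluripotent sum, as the plot of paralogue shares shows. The 3 TET genes summed to 7.13 CPM per kilobase in the fibroblasts and to between 16.1 and 34.4 in the pluripotent libraries. No paralogue share was tested.

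Both cofactors were also lower in the fibroblast library. HELLS (ENSCJAG00000015819, chromosome 12, 81459625 to 81515414, plus strand) stood at 601 CPM in DSY127, 567 CPM in No40, 562 CPM in the iPS library, 316 CPM in No20 and 87.7 CPM in the fibroblast library. The intervals of No40 (560.5 to 574 CPM) and the iPS library (543 to 582 CPM) overlapped, and No20 lay below both. HELLS fell 5.64-fold from an ES mean of 495 ± 156 CPM (n = 3), a log2 fold change of -2.50 ± 0.52 (adjusted p = 0.0206).

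HELLS is known to be high in dividing cells. The proliferation marker MKI67 had 848 CPM in fibroblasts and 562 ± 191 CPM in ES lines (n = 3) and did not pass (log2 fold change 0.59 ± 0.44, adjusted p = 0.384). Of the 16 genes in the S phase and proliferation list, which holds MKI67, 7 had a fitted fibroblast value above 0 and 9 below. Their median log2 fold change was -0.35, against -0.15 over all genes tested. The per-length ratio of HELLS to PCNA was 0.185 in the fibroblasts, 0.632 in No20 and 1.22 to 1.45 in DSY127 and No40, with 1.26 in the iPS library. The partner of HELLS in the remodelling complex is CDCA7, which had 54.7 CPM in fibroblasts, 119 ± 36.2 CPM in ES lines and 115 CPM in iPS cells and did not pass (fibroblast log2 fold change -1.12 ± 0.45, adjusted p = 0.136). Its paralogue CDCA7L fell from 73.5 ± 4.27 to 27.4 CPM (-1.42 ± 0.37, adjusted p = 0.0433), a call that was lost without any ES line in turn (adjusted p = 0.085 without No40, 0.115 without DSY127 and 0.0659 without No20).

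TRIM28 (ENSCJAG00000000240, chromosome 22, 49066447 to 49072918, plus strand) was abundant in all libraries, at 2129 CPM in DSY127, 1804 CPM in No40, 1331 CPM in the iPS library, 1133 CPM in No20 and 513 CPM in the fibroblast library. It ranked per length at or above the 98.0th percentile in each. TRIM28 fell 3.29-fold from an ES mean of 1689 ± 508 CPM (n = 3), a log2 fold change of -1.72 ± 0.47 (adjusted p = 0.0473), the narrowest pass of the 6. SETDB1, the H3K9 methyltransferase that it recruits, had 75.9 CPM in fibroblasts and 96.5 ± 6.51 CPM in ES lines and did not pass (log2 fold change -0.35 ± 0.34, adjusted p = 0.517).

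The fibroblast calls of DNMT3A, DNMT3B and TET1 held under all 11 alternatives. Without ES line No40, DNMT1, HELLS (log2 fold change -2.31, adjusted p = 0.0613) and TRIM28 (-1.59, adjusted p = 0.1) no longer passed, and TRIM28 also failed without DSY127 (-1.42, adjusted p = 0.114).

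**Figure D4:**
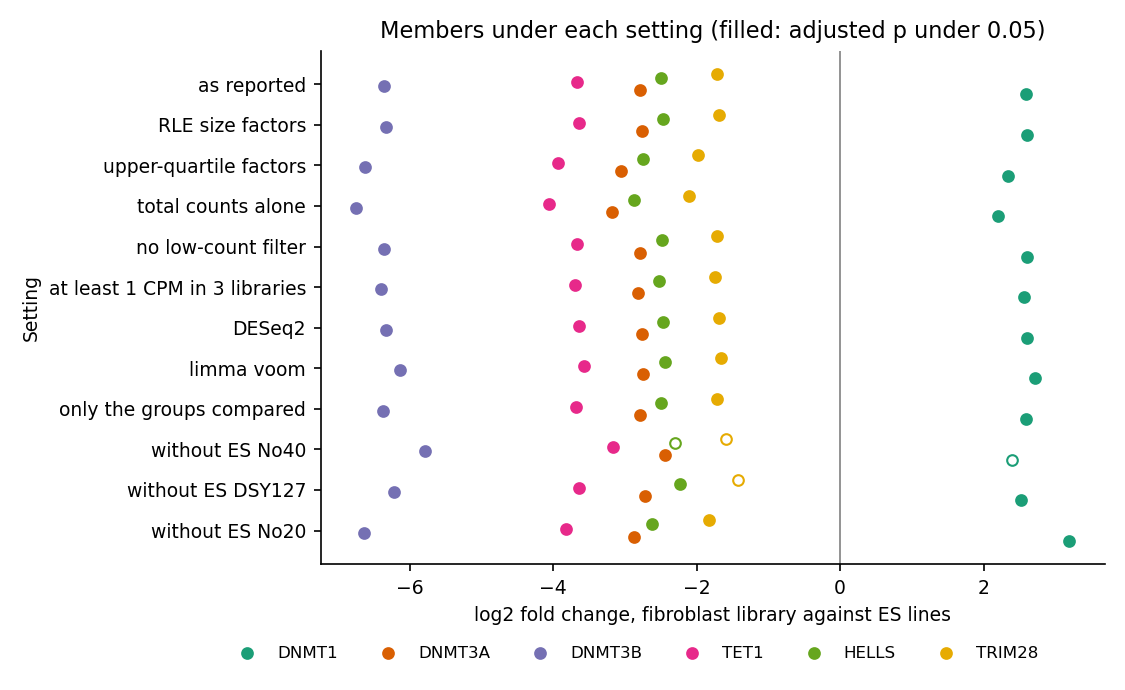
Log2 fold change of the 6 genes, fibroblast library against ES lines, as reported and under the 11 alternatives (vertical axis). Filled points have an adjusted p under 0.05: direction is kept throughout, and the open points are DNMT1, HELLS and TRIM28 without No40 and TRIM28 without DSY127.

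Within the ES group, line No20 stood nearest to the fibroblasts for all 6 genes. It had the lowest ES level of DNMT3A, DNMT3B, TET1, HELLS and TRIM28 and the highest of DNMT1. Over all genes tested, No20 was the ES line nearest to the fibroblast library in 40.2%, No40 in 33% and DSY127 in 26.8%. The P number of No20 (45) lies between those of DSY127 (17) and No40 (63), and its part in these levels was not tested. No20 also had the lowest sum of 8 measured pluripotent markers, 3015 CPM against 4376 CPM in No40 and 4552 CPM in DSY127. It had the highest sum of 6 endoderm markers, 149 CPM against 43.8 and 83.3 CPM. These markers did not all share that order. FOXA2 and CXCR4 were highest in No20, HNF4A was highest in DSY127 (16.2 CPM against 9.58 CPM in No20), and AFP had no reads. GATA6 had the highest ES mean of these markers, 48.2 ± 37.7 CPM, and 37.6 CPM in the fibroblast library. For the other lineage lists DSY127 had the highest sum. These were mesoderm (219.7 CPM against 192.1 CPM in No20), neural ectoderm (1102 against 533 CPM) and trophoblast and amnion (268 against 15.7 CPM). Most of the trophoblast and amnion sum in DSY127 was 1 gene, the keratin KRT7. KRT7 had 241 CPM in DSY127, against 14.2 CPM in No40 and 11.8 CPM in No20. The 12 fibroblast markers summed to 2839 CPM in No20, beside 2782 CPM in No40 and 1661 CPM in DSY127. Much of the No20 sum was 1 gene, the intermediate filament gene VIM, at 1240.2 CPM against 429 and 448 CPM, and without VIM the other 11 summed to 1599 CPM in No20, 2352 CPM in No40 and 1213 CPM in DSY127. No20 was the highest ES line for 4 of the 12 markers, the lowest for 3 and between the others for 5. The part of these markers in the levels of the 6 genes was not tested.

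The spread among ES lines differed from gene to gene. The highest line exceeded the lowest by 4.20-fold for DNMT3B, 2.57-fold for TET1, 2.55-fold for DNMT1, 1.90-fold for HELLS, 1.90-fold for DNMT3A and 1.88-fold for TRIM28. For comparison, it was 1.35-fold for UHRF1, 1.28-fold for PCNA and 1.53-fold for POU5F1. Other genes outside the 6 spread more widely, with 2.06-fold for MKI67 and 5.83-fold for the histone methyltransferase gene NSD2. The spread over all genes was not taken, so these values do not show whether the 6 varied more than most genes. With 1 library for each line, a difference between lines cannot be told apart from one between cultures of a line.

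The second comparison asked whether the reprogrammed cells hold these genes at the level of ES lines. DNMT1 was the single gene of the 6 with an unadjusted p under 0.05, as lower, and DESeq2 called it while limma voom called 0 of the 6. Over all genes tested, 3.13% were lower with an unadjusted p under 0.05 and 0.384% with DESeq2. Limma voom called 0 of all genes as lower, so its 0 of the 6 is no result about them. The intervals are wide: for DNMT3B the iPS level was 0.970-fold of the ES mean with a 95% interval of 0.306-fold to 3.07-fold, for TET1 0.987-fold (0.405 to 2.40), for HELLS 1.14-fold (0.555 to 2.33), for TRIM28 0.788-fold (0.390 to 1.59) and for DNMT3A 0.661-fold (0.315 to 1.38). A missed threshold at this width does not show that the levels were alike.

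DNMT1 had the widest iPS gap of the 6 without passing. Its iPS level of 10.99 CPM lay below every ES line and 4.22-fold below the ES mean, a log2 fold change of -2.08 ± 0.65 (95% interval -3.64 to -0.52, adjusted p = 0.402). DESeq2 gave adjusted p = 0.0426, and over the 11 alternatives the adjusted p ran from 0.0426 to 0.9999 with log2 fold changes of -2.36 to -1.57. Of the 12 fibroblast markers, 5 (COL1A1, COL1A2, COL3A1, FBN1 and PRRX1) lay above every ES line in the same iPS library, 4 (COL5A1, DCN, PDGFRA and PDGFRB) lay below every ES line and 3 lay within their range. Of the 3 measured trophoblast and amnion markers, TFAP2A, a transcription factor, had 235 CPM in iPS cells and 3.61 to 10.99 CPM across ES lines (log2 fold change 4.97 ± 0.56, adjusted p = 0.0507), with DESeq2 calling it higher. The other two lay within the ES range. The part of these markers in the iPS values was not tested.

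Set beside the fibroblasts without a test, the iPS library had 80.0-fold more DNMT3B, 12.6-fold more TET1, 6.41-fold more HELLS, 4.57-fold more DNMT3A and 2.60-fold more TRIM28. DNMT1 was at 0.0393 of the fibroblast level. Both groups hold 1 library, so these ratios have no replicate check.

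The other genes of the pathway were read from the same fit. Of 53 other gene models in lists of writers and maintenance cofactors, erasers and base excision, methyl-CpG readers, TRIM28 and H3K9 partners, histone guides of the DNMT3 enzymes and methyl donor supply, 3 rose and 3 fell in the fibroblast library and 47 did not pass, with a median log2 fold change of -0.05 against -0.15 over all genes tested. Over all genes tested 8.8% rose and 9.28% fell, so the calls in these lists were no result about the pathway. With total counts alone 2 rose and 8 fell, beside 6.1% and 11.5% of all genes, and with DESeq2 5 rose and 8 fell, beside 11.8% and 15.6%.

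KDM1B, an H3K4 demethylase that mouse oocytes need to methylate imprinted genes, rose from 10.8 ± 3.20 to 79.2 CPM (log2 fold change 2.88 ± 0.45, adjusted p = 0.00867) and stood at 5.41 CPM in the iPS library. This order, with the fibroblasts highest and the iPS library lowest, is also that of DNMT1. KDM5B, an H3K4 demethylase of another family, fell from 521 ± 102 to 133 CPM (-1.97 ± 0.40, adjusted p = 0.0202). ZBTB4, a zinc finger protein that binds methylated DNA, rose from 14.4 ± 2.08 to 83.2 CPM (2.53 ± 0.37, adjusted p = 0.00705).

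TASOR, a subunit of the HUSH silencing complex, rose from 30.1 ± 8.22 to 90.8 CPM (1.60 ± 0.40, adjusted p = 0.0384). TASOR did not pass without No40 (adjusted p = 0.0858) or DSY127 (0.0722), nor with upper-quartile factors (0.0665) or total counts alone (0.0903).

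**Figure D5:**
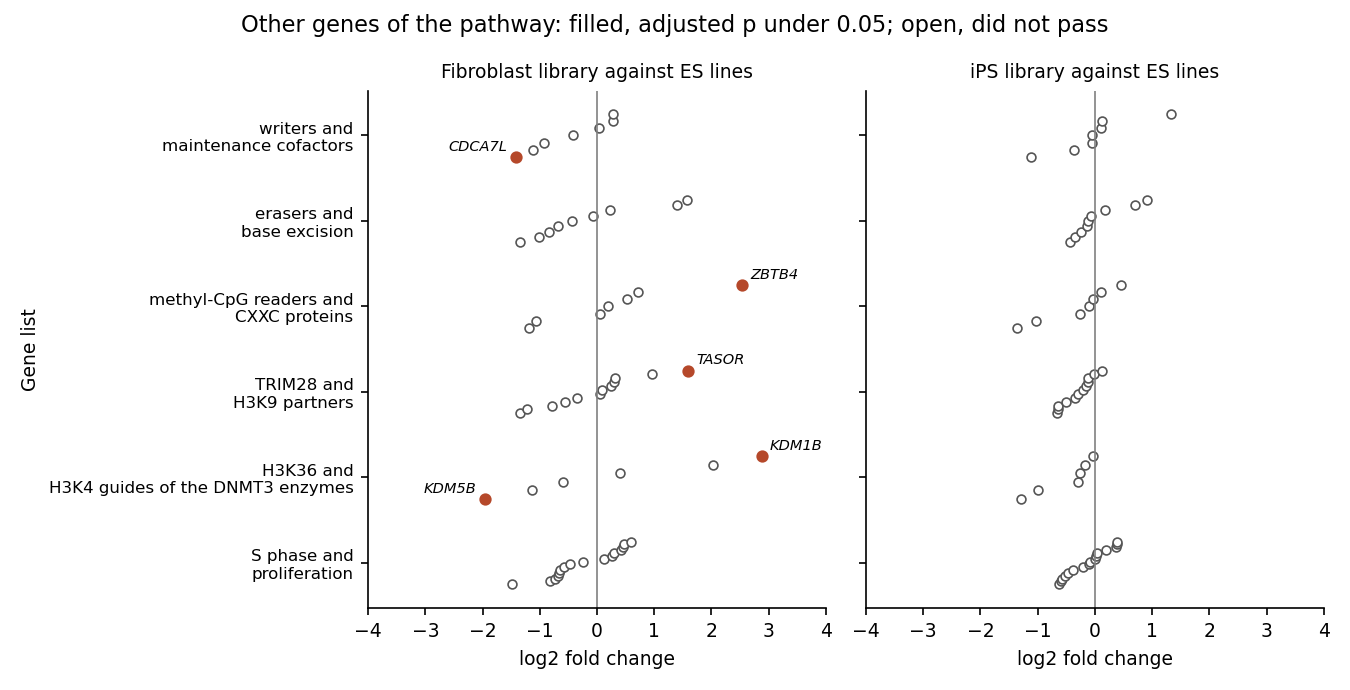
Log2 fold change of the other genes of each list except methyl donor supply (points, with the 6 genes themselves left out) in the fibroblast library (left) and the iPS library (right) against the ES lines. Filled and named points have an adjusted p under 0.05: CDCA7L and KDM5B below 0, ZBTB4, TASOR and KDM1B above 0, and none in the iPS library.

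In the iPS library 0 of the 53 models passed with the edgeR test. Over all genes tested 0.109% rose and 0 fell. Unadjusted p-values under 0.05 were found for 2 higher and 2 lower models, beside 5.56% and 3.13% of all genes. Both DESeq2 and limma voom called 0 of the 53, where over all genes DESeq2 called 2% higher and 0.384% lower and limma voom 0.0286% higher. Of the 53, 14 had a fitted value above and 39 below 0, beside 7577 above and 9885 below among all genes tested.

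The named genes with the profile most like each member over the 5 libraries were found by the distance between mean-centred log2 CPM values, among 8659 genes with a symbol and a mean of at least 5 CPM. A smaller distance is a closer profile, on 5 points that share their libraries. DNMT3B lay nearest to PPP1R1B (distance 0.283), KIF5C (0.398) and WNK2 (0.457), and TET1 nearest to RFX2 (0.301), GASK1A (0.335) and JARID2 (0.408), an accessory subunit of the Polycomb complex PRC2. DNMT3A was closest to ANKS1A (0.263), PTPRF (0.304) and ARHGEF19 (0.321).

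CERS4 (0.271) and STEAP1 (0.327) were among the genes closest to HELLS, and TRIM28 was closest to PPCDC (0.114), DYNC2I2 (0.122) and KLHL25 (0.165). DNMT1 was closest to TGFB1I1 (0.311), RIN1 (0.456) and PYCR1 (0.496). Among the members themselves the nearest pair was HELLS and DNMT3A (0.820), and the farthest was DNMT1 and DNMT3B (8.94).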

How the data were processed

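Total RNA was extracted with a Qiagen kit and made into Illumina libraries, per the labels' protocols. The authors deposited raw counts for each gene as whole numbers. A table of the series and a file for each library hold equal counts at every gene. Per the submitters' processing notes the tools include featureCounts 1.5.2, STAR 2.5.3a and Trim Galore 0.4.0. Not given in the sources used here are the genome build and how strand and multi-mapping reads were handled, so genes with near-identical copies are uncertain. Coordinates are 1-based.

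In edgeR 4.0.16 (R 4.3.3; DESeq2 1.42.0 and limma 3.58.1 for alternatives), filterByExpr kept 17462 genes, which were scaled with TMM (factors 0.813 to 1.07) and fitted over all 5 libraries with the 3 groups as levels. The quasi-likelihood test had 2 residual degrees of freedom, with Benjamini-Hochberg adjustment over all genes tested and calls under 0.05. The SE of a log2 fold change was derived from that test, as its absolute size divided by the square root of the F statistic. Its 95% interval used this SE and the total degrees of freedom of the test, which add those borrowed across genes. The p-values measure the spread between the 3 ES lines, which the lone libraries are assumed to share. Both comparisons use the same ES lines. Log2 CPM used a prior count of 2. CPM of a single library carries an exact Poisson interval (95%).

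Named are the 6 genes, per list up to 4 called genes, smallest adjusted p first, and always UHRF1, TET2, TET3, MKI67, PCNA, POU5F1 and COL1A2. DNMT3L and ZFP57, also in that rule, are not analysed here. SETDB1, CDCA7, VIM, DCN, COL1A1, COL3A1, COL5A1, FBN1, PDGFRA, PDGFRB, PRRX1 and TFAP2A were added after their values were seen. So were NSD2, KRT7, FOXA2, CXCR4, HNF4A, GATA6 and AFP. Some genes that the rule names are not reported here. The members and lists were chosen with earlier results of these data known. The fit was tested on simulated counts. The 11 alternatives were upper-quartile or RLE factors, scaling by total counts, fitting without a low-count filter, at least 1 CPM in 3 libraries, DESeq2, limma voom, only the groups compared, and leaving out each ES line.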

Additional observations from a re-analysis of the deposited data

How the results depend on the processing

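All 6 genes kept their direction in the fibroblast comparison under the 11 alternatives, and 6 passed under each except that 3 passed without No40 and 5 without DSY127, so that leaving out an ES line gave 3 to 6. Scaling by total counts alone shifted the median over all genes tested by -0.38 (log2), and upper-quartile factors by -0.26. As reported 3157 genes passed, 1537 higher and 1620 lower, and with total counts alone 3082 passed, 1066 higher and 2016 lower. The number of all genes called was 4773 with DESeq2 and 1742 to 4550 when an ES line was left out (1742 without No40). Of the 53 other pathway models 6 passed, against 10 with total counts alone, 13 with DESeq2 and 4 to 9 without an ES line. In the iPS comparison 19 genes passed in all, against 204 with no low-count filter, 416 with DESeq2 and 5 with limma voom. Leaving out an ES line gave 0 to 268 (0 without No40). Of the 6 genes, 0 passed in the iPS comparison as reported, and 1 with DESeq2 (DNMT1). DNMT3B and TET1 changed sign in 4 of the 11 alternatives of that comparison and HELLS in 1, never past the threshold. The causes were not tested. No paired analysis was possible because the fibroblast and iPS groups hold 1 library each and the labels give no shared replicate numbers. The iPS library, 5746449 counts deep, limits precision most for DNMT1, with 65 reads.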
